A study of Homo sapiens with 16 samples.

Results

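The genes described here encode growth-responsive transcription factors and were followed across the thyroid carcinoma lines TPC1 and K1. They are the FOS proteins of AP-1 (FOS, FOSB, FOSL1 and FOSL2), its JUN proteins (JUN, JUNB and JUND), EGR1 and MYC. They were chosen by symbol, as 9 of the 25369 genes in the count table, and each was found once and passed the filter on low counts in both lines. The table holds raw gene counts from stranded, polyadenylated RNA. TPC1 and K1, the latter derived from GLAG-66, are established lines of human papillary thyroid carcinoma that carry wild type p53. TPC1 was grown in RPMI and K1 in DMEM, and line also goes with the sequencing run numbers. Line, medium and run numbers therefore cannot be told apart. Each line received vehicle (0.2% DMSO), 10 µM nutlin-3a (hereafter nutlin), 25 µM GSK2830371, or both drugs, for 24 h. Nutlin blocks the hold of MDM2 on p53, GSK2830371 is an inhibitor of the phosphatase PPM1D, and the transcriptome was measured to look for mechanisms of their synergy. There are 2 libraries per group and 16 in all. The study states in general that its replicates were prepared independently, and the p values measure the spread between these libraries.

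AP-1 is a dimer of leucine zipper proteins: a FOS protein pairs with a JUN protein, whereas JUN proteins can also pair with each other. FOS, FOSB, JUN, JUNB, EGR1 and MYC are textbook immediate-early genes, transcribed within minutes of growth factor signalling through the MAP kinases and then silenced, while FOSL1 and FOSL2 follow later and JUND mRNA is present in resting cells. FOSL1 is known for staying high in carcinoma cells with sustained ERK signalling, a common state of papillary thyroid carcinoma. MYC pairs with MAX and raises genes of ribosome biogenesis, nucleotide synthesis and metabolism. p53 activation is known to lower MYC transcription in many cell types.

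A TPC1 library held 30789887 to 76648552 counts and a K1 library 28888686 to 37161241. In TPC1 replicate 3 was the deeper, with 62853375 to 76648552 counts against 30789887 to 36896529 in replicate 1. Levels are given as CPM, the usual scaling of a count by its library's total. A floor of 3 counts amounts to at most 0.0974 CPM in TPC1 and 0.104 CPM in K1. Intervals and floors of this kind cover counting error only. The lines kept PAX8 (280 to 451 CPM in TPC1, 749 to 841 in K1) and FOXE1 (22.0 to 38.1 CPM over both), transcription factors of the thyroid follicular cell. TSHR, the thyrotropin receptor, had no count in any library. Of 6 epithelial markers, 3 averaged over 1 CPM in each line. KRT8 stood at 299 to 517 CPM in TPC1 and 630 to 832 in K1, and KRT18 at 114 to 392 and 289 to 465. CDH1, of the same list, did not exceed 0.0692 CPM. A list of 12 fibroblast, leukocyte and endothelial markers summed to 2.52 to 9.19 CPM in TPC1 and 3.36 to 8.16 CPM in K1. That sum was lowest with the combination in both lines, 2.52 to 3.39 CPM in TPC1 against 8.36 to 9.19 CPM with DMSO, and most of it was COL1A1 and LUM. PTPRC did not exceed 0.0628 CPM, CD3E was at 0 throughout, and the part of these markers in the results was not tested. In bulk RNA, fewer cells of a type and less RNA per cell cannot be told apart.

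CDKN1A, the cell cycle inhibitor p21, averaged 139 ± 15.2 CPM (SD, n = 2) with DMSO and 6629 ± 84.8 CPM with nutlin in TPC1, and 114 ± 5.17 against 1012 ± 48.4 CPM in K1. MDM2 rose by 4.96 on the log2 scale with nutlin in TPC1 and by 3.05 in K1 (edgeR, adjusted p = 6.8e-09 and 4.7e-12). GSK2830371 alone raised CDKN1A by 1.01 in K1. PPM1D, itself a p53 target, rose by 1.90 with nutlin in TPC1 and by 1.32 in K1, and fell by 0.74 with GSK2830371 alone in TPC1.

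Nutlin changed 7 of the 9 genes in TPC1, and in K1 it changed 1. A gene is called changed here at a Benjamini-Hochberg adjusted p under 0.05, taken over all genes tested, and a fold change over 1.5 in edgeR's quasi-likelihood test. FOSB, FOSL2 and JUND rose with nutlin and FOS, FOSL1, EGR1 and MYC fell in TPC1. Those are 3 members called higher, where 17.5% of the 15273 genes tested were, and 4 called lower, where 18.0% were. In K1, 1 member fell, MYC, beside 5.43% of 15900 genes lower, and 0 rose, beside 3.84% higher. With the combination, 3 members rose and 4 fell in TPC1 (22.5% and 21.7% of all genes), and in K1 FOSB and JUND rose and MYC fell (7.62% and 8.09%). GSK2830371 alone moved 0 members in either line by edgeR, with 3 at an unadjusted p under 0.05 in TPC1 and 5 in K1, and 0 in both by DESeq2. Few genes at all were called there, 0.72% higher and 0.681% lower in TPC1, 0.736% and 1.5% in K1. Without K1 DMSO replicate 1, JUND and EGR1 passed as well in that line, with nutlin (log2 0.63 and -0.76) and with GSK2830371 (0.67 and -0.60), and EGR1 passed with GSK2830371 also without that drug's replicate 1 (-0.68). These comparisons share their DMSO libraries. The median log2 fold change of the members with nutlin in TPC1 was -0.13, beside -0.0018 over all genes.

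**Figure D1:**
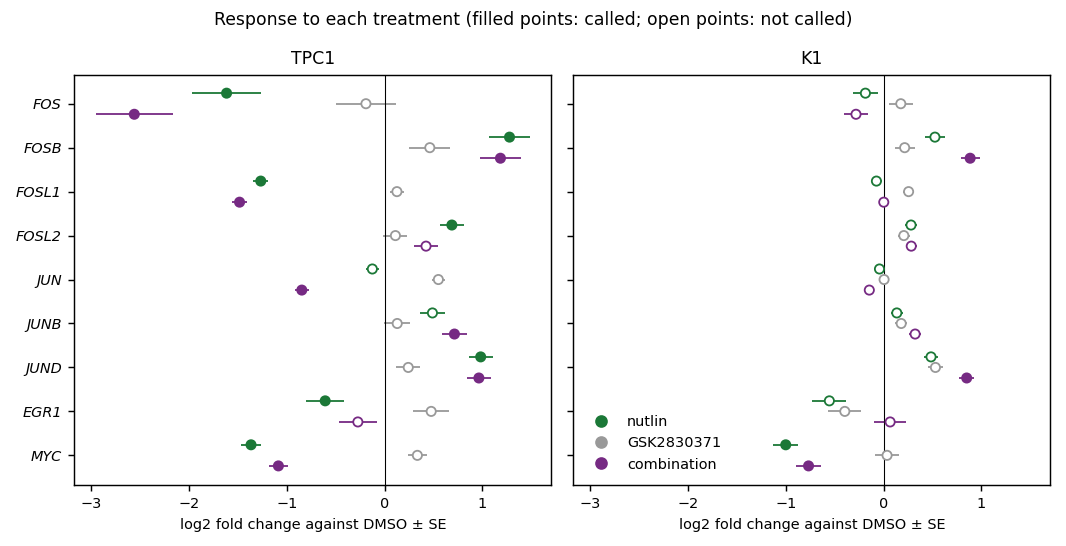
Log2 fold change against DMSO (horizontal axis, ± SE from edgeR) of each gene with nutlin, GSK2830371 or the combination in TPC1 (left) and K1 (right); filled points are called. In TPC1 7 of 9 genes are filled for nutlin, whereas in K1 MYC alone is, and no grey point (GSK2830371) is filled in either line.

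Levels are compared between genes only per length, as CPM per kilobase of the gene's merged exons. In TPC1 with DMSO, FOSL1 led at 292 ± 11.3 CPM per kb (SD, n = 2). MYC at 52.5, JUN at 43.4, FOSL2 at 33.6, JUND at 26.1 and JUNB at 11.8 CPM per kb followed, and neighbours in that order did not overlap between their libraries. EGR1 (1.12 CPM per kb) and FOSB (1.08) overlapped, and FOS was lowest at 0.424. In K1 with DMSO the order was FOSL1 (185 ± 7.80), JUN (116), JUNB (25.9), JUND (22.4), FOSL2 (20.8), MYC (10.8), EGR1 (3.11), FOS (1.73) and FOSB (1.60 CPM per kb), and of these neighbours JUND and FOSL2 alone overlapped. FOSL1 kept the first place in all 8 groups. MYC, next to FOSL1 in TPC1 with DMSO, was found with nutlin at 19.9 CPM per kb, behind FOSL2 (52.9), JUND (50.3) and JUN (38.8), of which FOSL2 and JUND overlapped.

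**Figure D2:**
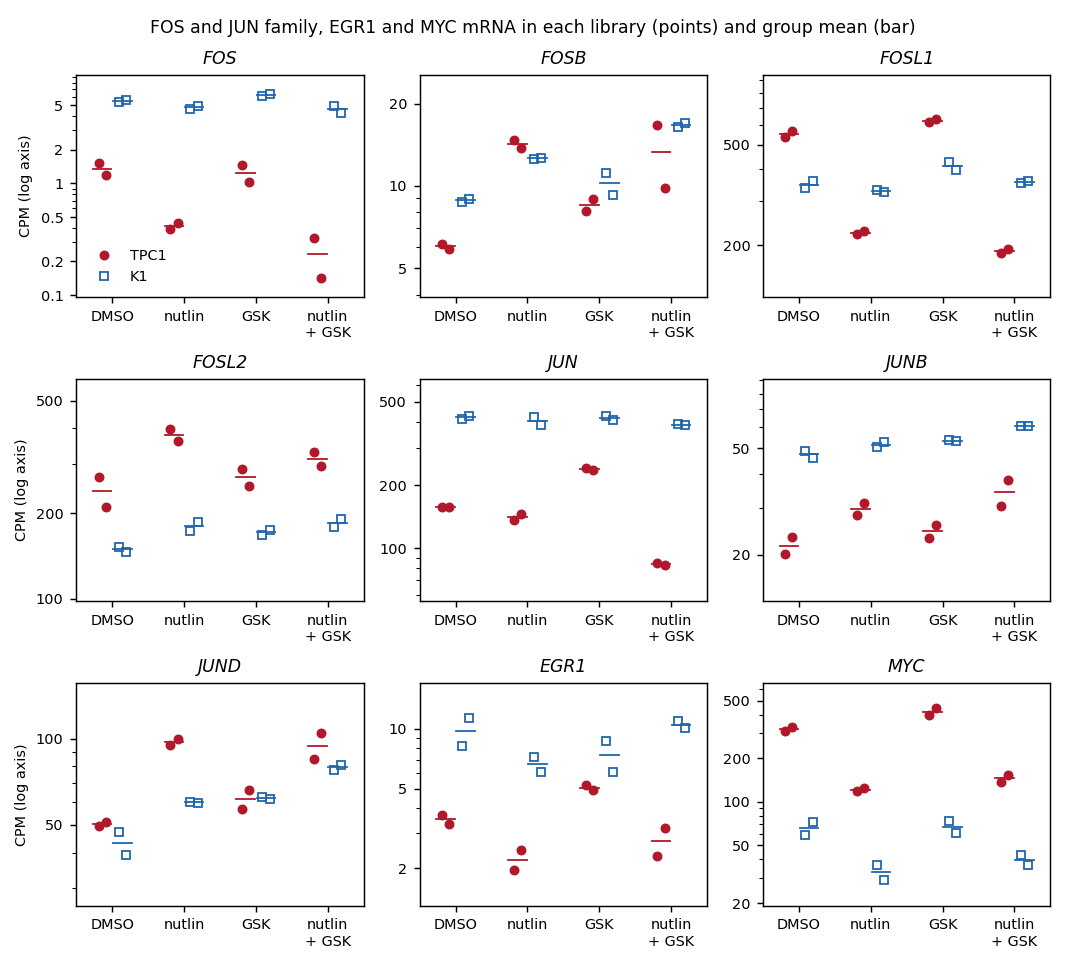
CPM of each gene (vertical log axis) in every library, with TPC1 as filled circles, K1 as open squares and a bar at the mean of 2 libraries, by treatment along the horizontal axis. FOSL1 and MYC drop with nutlin and with the combination in TPC1, JUN drops there with the combination to 85.2 and 83.4 CPM, and the K1 points move less.

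With DMSO the lines differed in 7 of the 9 genes. K1 was higher in FOS, JUN, JUNB and EGR1, beside 25.0% of 16738 genes called higher in the fit of all 16 libraries, and lower in FOSL1, FOSL2 and MYC, beside 21.2% lower. The gap was widest for MYC, 4.88-fold lower in K1 (log2 difference -2.29 ± 0.135, adjusted p = 1.9e-10), and for FOS, 4.15-fold higher (2.05 ± 0.189, adjusted p = 5.7e-08). JUN was 2.67-fold higher in K1, EGR1 2.78-fold and JUNB 2.18-fold. FOSB (log2 difference 0.56, adjusted p = 0.01) lay just under the fold threshold, and JUND gave -0.23 with an adjusted p of 0.09. FOSL2 gave -0.53, under the fold threshold, without TPC1 DMSO replicate 1.

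FOSL1, on chromosome 11 (GRCh37 65659520 to 65668044, minus strand, 4 exons), encodes the FOS protein most tied to transformed epithelium. In TPC1 it stood at 537 and 567 CPM with DMSO (replicates 1 and 3), 221 and 227 with nutlin, 614 and 633 with GSK2830371, and 187 and 194 with the combination. In K1 it stood at 338 and 359 CPM with DMSO (replicates 1 and 2), 332 and 325 with nutlin, 428 and 399 with GSK2830371, and 353 and 359.6 with the combination. The TPC1 libraries with nutlin, alone or combined, thus lay below all the other TPC1 libraries and all K1 libraries. Nutlin lowered FOSL1 2.41-fold in TPC1 (log2 fold change -1.27 ± 0.0755, adjusted p = 1.1e-06) and the combination 2.80-fold (-1.48 ± 0.0759, adjusted p = 2.6e-07). In K1 the same contrasts gave -0.07 ± 0.0538 (adjusted p = 0.35) and 0.00 ± 0.0537 (adjusted p = 0.98). GSK2830371 alone gave a log2 fold change of 0.26 in K1 (adjusted p = 0.0051), a fold of 1.19 that is under the threshold.

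FOSL2 (chromosome 2, 28615315 to 28640184, plus strand, 4 exons) moved the other way. Its TPC1 libraries held 269.9 and 211 CPM with DMSO, 398 and 359 with nutlin, 287 and 251 with GSK2830371, and 329 and 294 with the combination. In K1 the values were 152 and 147 CPM with DMSO, 173 and 187 with nutlin, 168 and 175 with GSK2830371, and 179.8 and 192 with the combination. Both nutlin libraries of TPC1 lay above the rest of that line. The nutlin rise was 1.61-fold (0.69 ± 0.124, adjusted p = 0.0012). Without DMSO replicate 3 it fell to a log2 value of 0.55, under the fold threshold. With the combination the log2 fold change was 0.42 ± 0.123 (adjusted p = 0.014), a fold of 1.34, and 0.60, past the threshold, without DMSO replicate 1.

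FOSB (chromosome 19, 45971253 to 45978437, plus strand, 4 exons), an immediate-early gene that also makes a truncated, long-lived protein, rose with nutlin. TPC1 held 6.15 and 5.87 CPM with DMSO, 14.7 and 13.8 with nutlin, 8.11 and 8.92 with GSK2830371, and 16.8 and 9.86 with the combination. K1 held 8.76 and 8.96 CPM with DMSO, 12.6 and 12.7 with nutlin, 11.2 and 9.26 with GSK2830371, and 16.4 and 17.1 with the combination. All libraries with nutlin exceeded those without it within each line, and the combination libraries of TPC1 lay on either side of nutlin alone. The rise was 2.42-fold with nutlin (1.28 ± 0.207, adjusted p = 0.00065) and 2.27-fold with the combination in TPC1 (adjusted p = 0.00081). In K1 it was 1.85-fold with the combination (0.89 ± 0.0977, adjusted p = 6.8e-06), while nutlin alone gave 0.53 ± 0.101 (adjusted p = 0.0013), a fold of 1.44.

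FOS (chromosome 14, 75745529 to 75748933, plus strand, 4 exons), the founding AP-1 gene, was scarce in TPC1, with 9 to 86 counts in a library. Its levels there were 1.52 and 1.19 CPM with DMSO, 0.390 and 0.445 with nutlin, 1.46 and 1.03 with GSK2830371, and 0.325 and 0.143 with the combination. In K1, where a library held 134 to 210 counts, they were 5.37 and 5.65 CPM with DMSO, 4.64 and 4.97 with nutlin, 6.08 and 6.32 with GSK2830371, and 4.96 and 4.31 with the combination. The TPC1 libraries with and without nutlin did not overlap, and every K1 library exceeded every TPC1 library. FOS fell 3.07-fold with nutlin in TPC1 (-1.62 ± 0.353, adjusted p = 0.0037) and 5.90-fold with the combination (-2.56 ± 0.391, adjusted p = 0.00035). The latter rests on 12 and 9 counts, and its log2 value was -1.98 without combination replicate 3 and -3.13 without replicate 1. In K1 the same contrasts gave -0.19 (adjusted p = 0.31) and -0.28 (adjusted p = 0.088).

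The cyclic AMP response element (CRE) and the TPA response element (TRE) are the DNA letters through which CREB, ATF and AP-1 proteins bind. They were searched on both strands in RefSeq promoter windows, which run from 250 bases before a gene's start to 50 after it on GRCh38.p14, and 7 of the 9 genes have such a window. FOSL1 and MYC have no entry. The CRE core TGACG occurs in 24.6% of 35116 promoters and in 7 of the 7 searched here, and a full CRE contains it. FOS and FOSB both carry the core at a like distance before the start, 64 and 60 bases upstream at its first letter. FOSL2 carries it 66 bases upstream and also holds a TRE (TGACTCA), 4 bases after the start, a motif of 4.95% of promoters. These windows show the matches in capitals, written 5′ to 3′ on the gene's strand.
FOS, chr14:75278755-75278777, plus strand: ttgagcccgTGACGtttacactc
FOSB, chr19:45467927-45467949, plus strand: aggggcgggTGACGtaagcaggg
FOSL2, chr2:28392783-28392805, plus strand: gtctggggtTGACGtgagtgaat
FOSL2, chr2:28392853-28392877, plus strand: ccattgtagTGACTCAtctcgggca
A match is a description of these letters, and binding at them was not measured.

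The balance within the FOS family shifted in TPC1. Of the summed CPM per kb of the 4 genes, FOSL1 made up 89.3% ± 1.98 (SD, n = 2) with DMSO, 68.1% ± 1.97 with nutlin and 68.7% ± 2.60 with the combination, while FOSL2 went from 10.3% to 30.3% and 29.6%. FOSB rose from 0.331% to 1.47% of the family with nutlin. The family sum itself was 328 ± 5.45 CPM per kb with DMSO, 174 ± 1.77 with nutlin and 147 ± 1.89 with the combination. In K1 FOSL1 held 88.4%, 85.8% and 86.1% of the family in those groups, and the sum stayed between 203 and 247 CPM per kb over the 4 treatments. These are descriptions of 2 libraries per group, with no test.

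**Figure D3:**
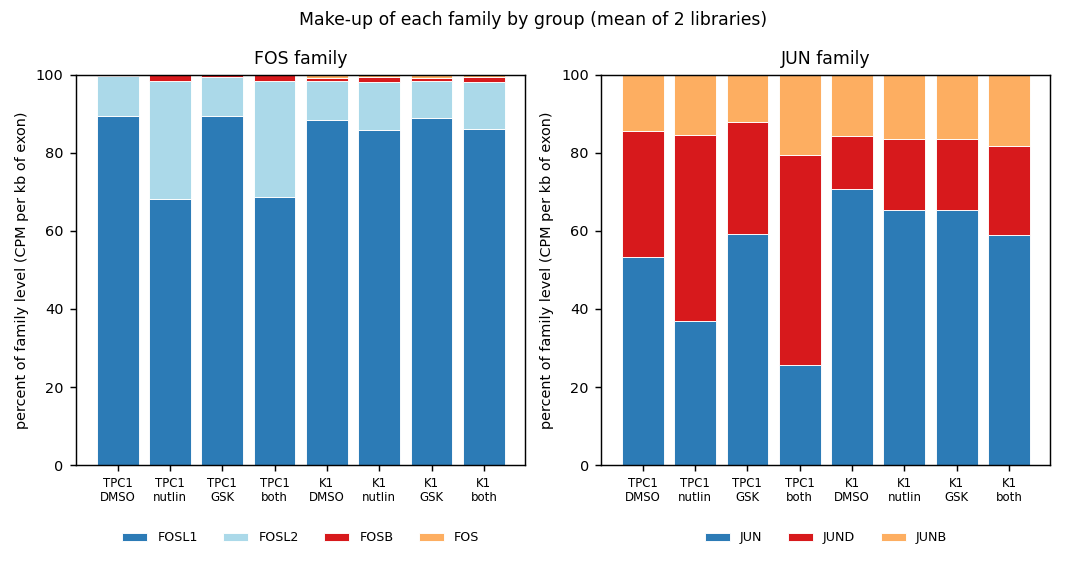
Percent of the summed CPM per kb held by each gene of the FOS family (left) and of the JUN family (right), as stacked bars from 0 to 100 for each line and treatment (mean of 2 libraries). In TPC1 the FOSL1 share falls from 89.3% to 68.1% with nutlin and the JUN share from 53.4% to 25.7% with the combination.

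JUN (chromosome 1, 59242517 to 59249720, minus strand, a single exon) encodes the strongest activator of transcription among the JUN proteins. In TPC1 it held 156 and 158 CPM with DMSO, 136 and 145 with nutlin, 241 and 236 with GSK2830371, and 85.2 and 83.4 with the combination. In K1 the values were 416 and 426 CPM with DMSO, 422 and 389 with nutlin, 429 and 411 with GSK2830371, and 391 and 387 with the combination. The 4 treatments of TPC1 did not overlap: GSK2830371 was highest and the combination lowest. Nutlin alone gave a log2 fold change of -0.13 ± 0.0693 (adjusted p = 0.15). GSK2830371 alone gave 0.55 ± 0.0693 (adjusted p = 0.0074), a fold of 1.46 just under the threshold, while the combination lowered JUN 1.80-fold (-0.85 ± 0.07, adjusted p = 6e-06). K1 JUN gave log2 fold changes from -0.15 to 0.01 for the 3 treatments.

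JUN was the one member at which adding GSK2830371 to nutlin made a called difference in TPC1. Against nutlin alone the combination was 1.65-fold lower (-0.72 ± 0.0699, adjusted p = 0.00019), in a comparison where 6.46% of genes were called higher and 5.66% lower. The single-drug effects sum to a log2 value of 0.42, whereas the combination gave -0.85. That gap, the interaction of the drugs, was -1.27 ± 0.0985 (adjusted p = 0.00036). JUN was 1 member of 9 called for an interaction in TPC1, in a comparison with 2.82% of genes higher and 3.5% lower. Against GSK2830371 alone the combination changed 8 of the 9 genes in TPC1, all but FOSL2 (0.31 ± 0.123, adjusted p = 0.054), with FOSB, JUNB and JUND higher and the others lower (19.5% and 19.0% of all genes). Of those, FOSB (log2 0.72, adjusted p = 0.013) gave 0.32 without combination replicate 1 and was also lost without GSK2830371 replicate 1. JUNB (0.59 ± 0.131) was just over the 1.5-fold threshold and fell under it in 6 of the 16 alternatives, to 0.40 at the lowest. Among these were the fits without combination replicate 3, GSK2830371 replicate 1 or DMSO replicate 1. JUND gave 0.55 without combination replicate 3 and EGR1 -0.54 without combination replicate 1, both then uncalled. Without combination replicate 1 the FOSB interaction (-0.95) was called too.

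JUNB (chromosome 19, 12902300 to 12904129, plus strand, a single exon that overlaps HOOK2 on the other strand) is the JUN protein that often opposes JUN in proliferation. TPC1 held 20.0 and 23.2 CPM with DMSO, 28.2 and 31.3 with nutlin, 23.1 and 25.9 with GSK2830371, and 30.5 and 37.9 with the combination. K1 held 49.0 and 45.9, 50.4 and 52.9, 53.7 and 53.3, and 60.8 and 60.6 CPM in the same order. In K1 both combination libraries exceeded the rest, and in TPC1 they overlapped nutlin alone. The combination raised JUNB 1.64-fold in TPC1 (0.71 ± 0.131, adjusted p = 0.0011). In K1 it gave a log2 value of 0.32 ± 0.0613 (adjusted p = 0.00074), a fold of 1.25. Without combination replicate 3 the TPC1 value was 0.53, under the fold threshold. Nutlin alone gave 0.49 ± 0.132 in TPC1 (adjusted p = 0.011), a fold of 1.40, and 0.63, then called, without DMSO replicate 3.

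JUND (chromosome 19, 18390504 to 18392432, minus strand, a single exon) is the JUN protein of resting cells and restrains growth in many settings. In TPC1 it held 49.5 and 51.0 CPM with DMSO, 94.8 and 99.4 with nutlin, 56.6 and 66.4 with GSK2830371, and 84.6 and 104 with the combination. In K1 it held 47.1 and 39.2 CPM with DMSO, 60.2 and 59.6 with nutlin, 62.4 and 61.5 with GSK2830371, and 78.0 and 80.9 with the combination. The nutlin and combination libraries of TPC1 exceeded the rest of that line, and in K1 the combination exceeded every other group. JUND rose 1.98-fold with nutlin in TPC1 (0.98 ± 0.121, adjusted p = 0.00012) and 1.95-fold with the combination. In K1 the combination raised it 1.80-fold (0.85 ± 0.0751, adjusted p = 8e-07), and each drug alone gave a fold of 1.40 (nutlin) or 1.44 (GSK2830371) at adjusted p values of 0.00027 and 0.0007.

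JUN thus lost its lead within the JUN family of TPC1. With DMSO it made up 53.4% ± 1.00 of the family's CPM per kb and JUND 32.1% ± 0.150. With nutlin these were 36.8% and 47.8%, with GSK2830371 59.3% and 28.7%, and with the combination 25.7% and 53.7%. In K1 JUN stayed ahead throughout, from 70.6% with DMSO to 59.1% with the combination, as JUND went from 13.6% to 22.7%. The family sum in TPC1 was 81.2 CPM per kb with DMSO, 105 with nutlin, 111 with GSK2830371 and 90.9 with the combination.

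Both of these genes carry a CRE-like motif that few promoters hold. JUN has TGACATCA, the variant described as its own autoregulatory site, 67 bases upstream (2.61% of promoters hold it), and JUND has the full palindrome TGACGTCA, 200 bases upstream (1.85%). JUNB holds the core TGACG 137 bases upstream. Binding at these letters was not measured, and their part in the changes of these genes was not tested.
JUN, chr1:58784098-58784123, minus strand: gccttggggTGACATCAtgggctatt
JUND, chr19:18281806-18281831, minus strand: ccgcccccaTGACGTCAacccacaag
JUNB, chr19:12791340-12791362, plus strand: tcctgacagTGACGcgagccgcc
The capitals mark the motif searched.

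EGR1 (chromosome 5, 137801168 to 137804992, plus strand, 2 exons), a zinc finger factor induced by ERK through serum response elements, was low in both lines. TPC1 held 3.71 and 3.31 CPM with DMSO, 1.95 and 2.46 with nutlin, 5.19 and 4.91 with GSK2830371, and 2.30 and 3.18 with the combination. K1 held 8.22 and 11.3 CPM with DMSO, 7.20 and 6.03 with nutlin, 8.64 and 6.08 with GSK2830371, and 10.9 and 10.0 with the combination. In K1 the nutlin libraries overlapped GSK2830371 alone, and the DMSO libraries overlapped both GSK2830371 and the combination. In TPC1 nutlin lowered EGR1 1.52-fold (-0.61 ± 0.197, adjusted p = 0.026). That call was lost without DMSO replicate 1 (adjusted p = 0.087) or nutlin replicate 1 (adjusted p = 0.13). The combination gave -0.27 ± 0.191 (adjusted p = 0.24).

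EGR1 was the member with an interaction in K1. Its single-drug effects there, -0.55 (nutlin, adjusted p = 0.027, a fold of 1.47) and -0.40 (GSK2830371, adjusted p = 0.13), sum to -0.95, whereas the combination gave 0.07. The interaction was 1.02 ± 0.243 (adjusted p = 0.024), with 1.79% of genes called higher and 0.654% lower in that comparison. The combination also exceeded nutlin alone 1.54-fold (0.62 ± 0.174, adjusted p = 0.033), where 1.16% of genes were called higher and 1.52% lower. Both calls are fragile. The interaction was lost without combination replicate 1 or 2, DMSO replicate 2 or nutlin replicate 2 (adjusted p = 0.078 to 0.15), and the second without either library of the combination or of nutlin (0.078 to 0.26). Against GSK2830371 alone the K1 combination changed FOSB (0.67, higher) and MYC (-0.80, lower), beside 6.3% of genes higher and 6.75% lower, and EGR1 gave 0.46 ± 0.171 (adjusted p = 0.045), a fold of 1.38. FOSB there fell to a log2 value of 0.54, under the fold threshold, without GSK2830371 replicate 2.

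The EGR1 promoter holds a pair of CArG boxes, the sites of serum response factor, a motif in 1.29% of promoters and in no other of the 7 windows. They begin 105 and 83 bases upstream, with the CRE core read on the opposite strand 66 bases upstream.
EGR1, chr5:138465365-138465392, plus strand: ccggtcctgCCATATTAGGgcttcctgc
EGR1, chr5:138465387-138465414, plus strand: tcctgcttcCCATATATGGccatgtacg
EGR1, chr5:138465404-138465426, plus strand: ggccatgtaCGTCAcgacggagg
Neither the MYC E-box CACGTG (7.26% of all promoters) nor the EGR site GCGTGGGCG (0.795%) occurs in these 7 windows, which says only that the letters are not there. Further copies of the core, not printed, lie 123 (JUN), 201 (FOSL2), 86 (JUND) and 135 bases (EGR1) upstream.

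**Figure D4:**
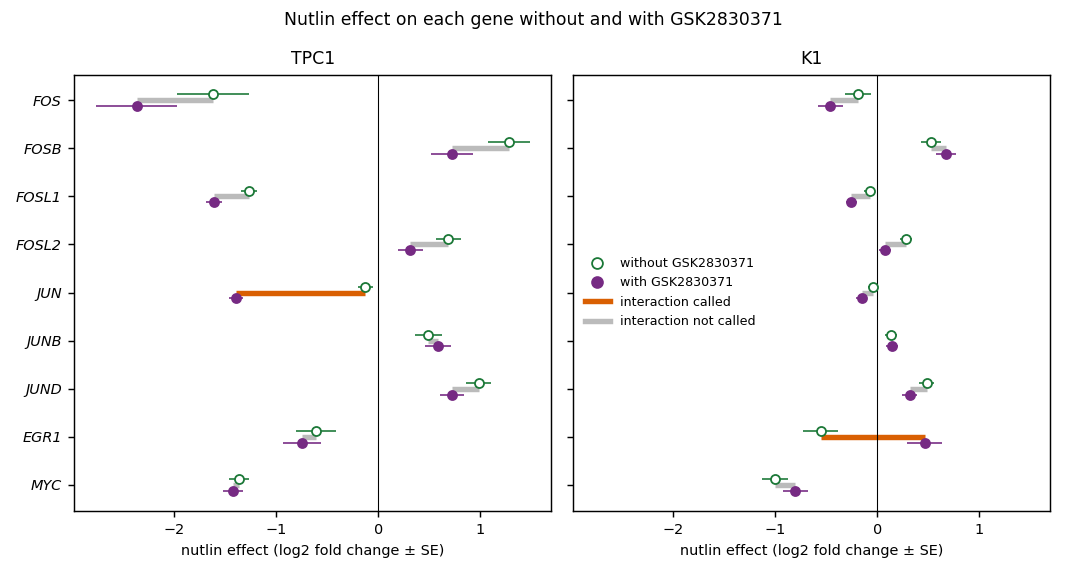
Log2 effect of nutlin (horizontal axis, ± SE) on each gene without GSK2830371 (open green) and with it (filled purple) in TPC1 (left) and K1 (right), joined by a bar that is orange where the interaction was called. The orange bars are JUN in TPC1, from -0.13 to -1.40, and EGR1 in K1, from -0.55 to 0.46.

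MYC is the only gene of the 9 that nutlin and the combination changed in both lines. It holds 3 exons and overlaps the antisense gene CASC11, and the counting used strand. In TPC1 it stood at 310.0 and 332 CPM with DMSO, 118 and 125 with nutlin, 396 and 442 with GSK2830371, and 137 and 154 with the combination. In K1 it stood at 59.3 and 72.6 CPM with DMSO, 36.9 and 28.8 with nutlin, 73.3 and 61.2 with GSK2830371, and 42.7 and 36.5 with the combination. In each line all libraries with nutlin lay below all without it. Nutlin lowered MYC 2.58-fold in TPC1 (-1.37 ± 0.0977, adjusted p = 3.3e-06) and 2.0-fold in K1 (-1.0 ± 0.126, adjusted p = 3.9e-05). With the combination the fall was 2.12-fold in TPC1 (-1.09 ± 0.0969, adjusted p = 1e-05) and 1.70-fold in K1 (-0.77 ± 0.123, adjusted p = 0.0002). The combination against nutlin gave a log2 difference of 0.28 ± 0.0964 (adjusted p = 0.062) in TPC1 and 0.23 ± 0.129 (adjusted p = 0.28) in K1, neither of them called. TPC1 MYC with nutlin still exceeded every K1 library.

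The difference between the lines was tested itself in the fit of all 16 libraries. The nutlin response differed for 3 of the 9 genes: FOSL1 (K1 minus TPC1, log2 1.16 ± 0.103, adjusted p = 4.1e-07), FOS (1.37 ± 0.319, adjusted p = 0.0034) and FOSB (-0.79 ± 0.242, adjusted p = 0.021). For FOSL1 and FOS the TPC1 fall was the deeper, and for FOSB the TPC1 rise was the larger. In that comparison 8.73% of genes were called higher and 10.5% lower. The FOSB call was lost without K1 DMSO replicate 2, K1 nutlin replicate 1 or TPC1 nutlin replicate 1. JUND (-0.53, adjusted p = 0.018) and FOSL2 (-0.45, adjusted p = 0.018) passed the p but not the fold threshold, and MYC gave 0.33 ± 0.186 (adjusted p = 0.2).

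The combination response differed for FOS (2.26 ± 0.356, adjusted p = 9.6e-05), FOSL1 (1.46 ± 0.104, adjusted p = 2e-08) and JUN (0.67 ± 0.0945, adjusted p = 3.1e-05), each lower in TPC1, where 11.9% of genes were called higher and 13.8% lower. FOS gave 1.64 without TPC1 combination replicate 3, and FOSB, uncalled at -0.32, gave -0.69 and was called. Adding GSK2830371 to nutlin changed JUN differently in the lines (0.63 ± 0.0946, adjusted p = 0.00071), 1 of 9 members beside 2.56% of genes higher and 2.56% lower, a call lost without K1 nutlin replicate 2 or TPC1 nutlin replicate 3. The response to GSK2830371 alone differed for 0 members by edgeR (2 at an unadjusted p under 0.05, 1 called by DESeq2), beside 0.597% of genes higher and 1.58% lower. JUN gave -0.54 ± 0.0941 (adjusted p = 0.0091), a fold of 1.46, and EGR1 -0.87 ± 0.27 (adjusted p = 0.076).

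Other genes of these pathways were counted from lists written from general knowledge, with earlier results of these data known. Their counts are to be read against the shares of all genes called, in TPC1 17.5% higher and 18.0% lower with nutlin and 22.5% and 21.7% with the combination, in K1 3.84% and 5.43%, then 7.62% and 8.09%. Of 11 further leucine zipper partners of AP-1 tested, 3 rose and 4 fell with nutlin in TPC1 and 4 rose and 2 fell with the combination. In K1 1 rose and 1 fell with nutlin, and 2 rose and 1 fell with the combination. ATF3, a stress-induced partner of JUN, rose from 1.76 ± 0.0449 CPM (SD, n = 2) with DMSO to 5.53 ± 0.0286 with nutlin and 39.0 ± 3.04 with the combination in TPC1. In K1 it went from 0.959 ± 0.471 to 4.31 ± 0.0355 CPM with the combination. The ATF3 rise with the combination was thus 4.53 ± 0.156 on the log2 scale in TPC1 and 2.12 ± 0.305 in K1, and the difference between the lines was -2.43 ± 0.403 (adjusted p = 0.00015). JDP2, a repressor that pairs with JUN, fell by 1.66 with nutlin in TPC1 and by 0.84 in K1, and was 2.53-fold higher with the combination than with nutlin in TPC1 and 2.09-fold higher in K1.

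Of the 27 MAP kinases, downstream kinases and promoter factors that act on these genes, 6 rose and 4 fell with nutlin in TPC1 and 7 rose and 7 fell with the combination, near the shares of all genes (17.5%, 18.0%, 22.5% and 21.7%). In K1 the combination raised 1 (MAP2K3, 0.68) and lowered 2 (RPS6KA5 and MAP2K6), where 7.62% of all genes were called higher and 8.09% lower. MAP2K4, a kinase upstream of JNK, rose by 0.97 with nutlin and by 1.21 with the combination in TPC1, and MAP2K6, a kinase upstream of p38, fell by 1.43 with the combination. MAPK3, the kinase ERK1, was the only one of the 27 with a called interaction in TPC1 (-0.59, adjusted p = 0.027). That count is near the shares of all genes called there, 2.82% higher and 3.5% lower.

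Of 25 immediate-early genes tested beyond the 9, 11 rose and 4 fell with nutlin in TPC1, 15 rose and 5 fell with the combination, and the medians were 0.49 and 0.78 on the log2 scale beside -0.0018 and 0.0035 over all genes. Of all genes 17.5% rose and 18.0% fell with nutlin there, and 22.5% and 21.7% with the combination. In K1 4 rose and 1 fell with nutlin (median 0.22, beside -0.0017 over all genes), where 3.84% of all genes rose and 5.43% fell. With the combination 10 rose and 0 fell in K1 (0.59, beside 0.012), where 7.62% rose and 8.09% fell. EGR2 went from 1 and 6 counts in the TPC1 DMSO libraries to between 80 and 137 counts with nutlin and between 213 and 393 with the combination. EGR3 had 12 to 20 counts with DMSO there, at most 2 with nutlin and at most 1 with the combination. NR4A3, a nuclear receptor of the same class, rose from 0.382 ± 0.150 to 9.72 ± 0.320 CPM with the combination in TPC1. In K1 it rose from 0.964 ± 0.197 to 3.71 ± 0.0576 CPM. KLF2 fell from 23.3 ± 4.36 to 2.43 ± 0.451 CPM with nutlin in TPC1. NAB2, a corepressor of EGR proteins and 1 of 2 tested, fell in TPC1 by 0.64 with nutlin and by 1.10 with the combination.

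Of 20 reported targets of AP-1 tested in TPC1, 3 rose and 4 fell with nutlin and 6 rose and 6 fell with the combination, near the shares of all genes with nutlin (17.5% and 18.0%) and with the combination (22.5% and 21.7%). Of 22 tested in K1, 1 rose with nutlin and 2 with the combination (3.84% and 7.62% of all genes). IL6, an inflammatory cytokine, rose by 2.76 and 4.22 in TPC1, and by 0.80 with the combination in K1. Like JUN, CCND1 (cyclin D1) had a negative interaction in TPC1 (-1.43 ± 0.106, adjusted p = 0.00034), and it stood at 621 ± 29.3 CPM with DMSO, 683 with nutlin, 692 with GSK2830371 and 269 with the combination. p53 and other factors act on several of these genes, and which factor acted was not measured.

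All 58 listed targets of MYC were tested, and in TPC1 51 fell and 0 rose with nutlin (median log2 fold change -1.07) and 43 fell and 0 rose with the combination (-0.93). The share of all genes called lower there was 18.0% and 21.7%. In K1 7 fell and 0 rose with nutlin (median -0.25) and 12 fell with the combination (-0.36), beside 5.43% and 8.09% of all genes. Whether MYC or another factor lowered these genes was not tested. UNG, a uracil-DNA glycosylase, fell by 2.52 ± 0.101 with nutlin in TPC1 and by 1.48 ± 0.0952 in K1. HK2, the hexokinase of glycolysis, averaged 146 ± 20.5 CPM with DMSO and 35.3 ± 0.458 with nutlin in TPC1, against 24.2 and 14.1 CPM in K1. With the combination XPOT and ODC1, the latter a rate-limiting enzyme of polyamine synthesis, were 2.53-fold and 2.28-fold higher than with nutlin in TPC1. These were the 2 of 58 called higher in that comparison, and 2 were called lower, among them LDHA (-1.13 ± 0.186, adjusted p = 0.0027), a lactate dehydrogenase. Of all genes tested there, 6.46% were called higher and 5.66% lower.

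Partners and regulators of MYC were counted likewise. MXD1 and MXD4 encode repressors that compete with MYC for MAX. In TPC1 MXD1 rose from 6.13 ± 0.530 to 19.4 ± 0.0832 CPM with nutlin and to 53.1 ± 3.97 CPM with the combination. MXD4 averaged 51.7 CPM with DMSO, 183 with nutlin and 104 with the combination in TPC1, and 41.5, 90.9 and 111 CPM in K1. MXD3, a relative expressed in dividing cells, fell by 3.25 with nutlin in TPC1 and by 1.05 in K1. Of the 12 network genes tested in TPC1, 4 rose and 1 fell with nutlin, and of the 11 in K1, 2 rose and 1 fell. Of 10 genes that set the stability of MYC and JUN proteins, 2 rose and 3 fell with nutlin in TPC1, and 1 rose and 2 fell in K1. The shares of all genes were 17.5% higher and 18.0% lower in TPC1 and 3.84% and 5.43% in K1. FBXW7, the ubiquitin ligase that degrades both, rose by 1.31 with nutlin in TPC1 and 1.07 in K1. KIAA1524 (CIP2A), which protects MYC, fell by 3.03 and 1.18.

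**Figure D5:**
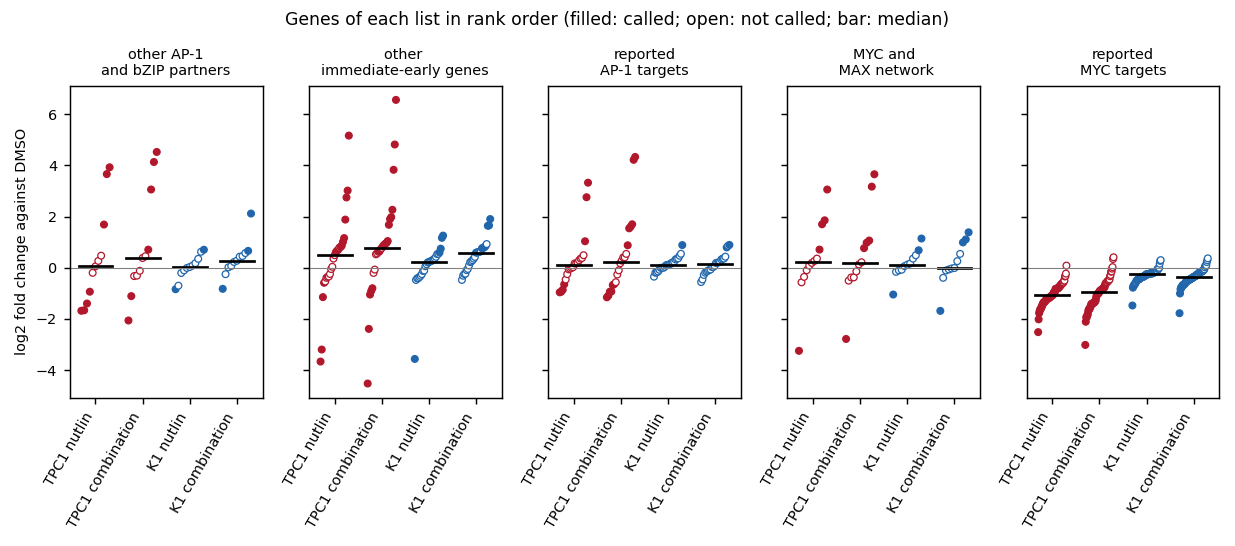
Log2 fold change against DMSO (vertical axis) of every tested gene in 5 lists, in rank order within each line and treatment, with called genes filled and a bar at the median. Of the 58 MYC targets at the right, 51 are filled below 0 with nutlin in TPC1 and 7 in K1. The points of EGR2, EGR3, MAF and MLXIPL in TPC1 rest on 20 counts or fewer in each DMSO library.

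The genes whose pattern across libraries was most like each member were named by correlation of log2 CPM over 16 libraries, after centring on each line, among 11619 genes. These libraries share treatments and depth, so the values describe likeness alone. JUN ran closest to KLF6 (r = 0.966), IL1R1 (0.960) and KLF10 (0.959). KLF6 stood in TPC1 at 111 CPM with DMSO, 111 with nutlin, 169 with GSK2830371 and 57.0 with the combination (interaction -1.50 ± 0.149). It was picked here for following JUN in these same libraries, so its likeness to JUN is no separate result. MYC ran closest to UCK2 (0.977), a kinase of pyrimidine salvage, PRIM1 (0.973), a subunit of DNA primase, and MRPS30 (0.972). FOSL1 ran closest to CDR2 (0.988), PITPNA and DPYSL2, JUND to NCSTN (0.969) and YIPF3, and JUNB to LTA4H (0.969), KLHDC2 and OCIAD1. For FOSB these were AP5Z1 (0.972), WIPI1 and SPNS1, for FOSL2 USP35 (0.970), KPNA6 and EXOC7, and for EGR1 EMB (0.884), ULK2 and SLC38A1. FOS, under 1 CPM on average in TPC1, was left out. Among the members themselves JUNB and JUND were most alike (r = 0.916), then FOSL1 and MYC (0.866), while FOSL2 and MYC ran opposite (-0.796).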

How the data were processed

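Strand-specific libraries of polyadenylated RNA were made from 16 samples. The authors aligned reads to GRCh37/hg19 with TopHat2 2.0.13, dropped alignments of low mapping quality and counted reads per gene with HTSeq 0.6.1 in reverse-stranded mode, so the deposited values are raw counts, not normalized. TPC1 columns are numbered 1 and 3, the labels 1 and 2: those numbered 3 were assigned to a group only, and TPC1 libraries carry the column number.

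Counts above 0.1 CPM in at least 2 libraries were scaled by TMM (factors 0.961 to 1.04) and fitted with edgeR 4.0.16 in R 4.3.3, 8 libraries per line (4 residual degrees of freedom) and 16 between lines. Library totals give the depth. Gene positions and exon lengths came from a GRCh37 annotation, matched to 22727 symbols by name. Alternatives were DESeq2 1.42.0, other scaling, other filters, the compared groups alone, a GC content and length correction, a replicate block and leaving out each library. The steps were tested on simulated data.

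In TPC1 the deviations of libraries from their group means went with the replicate number (correlations over 12308 genes of 0.420 to 0.563 in each pair of groups). Replicate 3 was also the deeper in every group, so pairing and depth cannot be told apart. The main fits hold no replicate block. The members and all lists were chosen with earlier results of these data known. Named are all 9 members, CDKN1A, MDM2 and PPM1D as checks, at most 3 called genes of largest change per list and comparison, and 3 genes most like each member (r on log2(CPM + 0.1), at least 1 CPM on average in both lines). CCND1, MXD1 and MXD4 values in further groups, and the counts of EGR2 and EGR3, follow from that rule. Some genes this rule names are not reported here.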

Additional observations from a re-analysis of the deposited data

Results flagged for a closer look

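These responses differed between the lines by a test of the difference itself (edgeR, 16 libraries, K1 minus TPC1 on the log2 scale). With nutlin they are FOS (1.37), FOSL1 (1.16) and FOSB (-0.79). With the combination they are FOS (2.26), FOSL1 (1.46) and JUN (0.67). For JUN, the effect of the combination against nutlin alone differed as well (0.63). FOSL1 gave -0.07 with nutlin and 0.00 with the combination in K1, against -1.27 and -1.48 in TPC1. Line, medium and sequencing run numbers cannot be told apart in any of these.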

How the results depend on the processing

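Of 153 results on single members, 46 were called, 33 of these under every alternative run, 13 lost under some and 0 reversed. Of the 107 uncalled, 15 were called under some alternative. The number of members called with GSK2830371 in TPC1 (0) was 1, JUN, when scaled by library size alone. The number whose GSK2830371 response differed between lines (0) was 1 with DESeq2's Wald test, with library size alone, with no filter and with the replicate block, and the cause was not tested. Left-out libraries gave 1 to 2 members for the TPC1 interaction (1), 1 to 3 for nutlin in K1 (1), 0 to 2 for GSK2830371 in K1 (0), and 0 to 1 for the K1 interaction (1) and the K1 combination against nutlin (1). They gave 1 to 3 for the K1 combination against GSK2830371 (2), 0 to 1 for the line difference with GSK2830371 (0), and 0 to 2 for that of the combination against nutlin (1). With the replicate block the members called changed in no comparison but the one named. K1 libraries share only a number (correlations -0.316 to 0.328 over 12544 genes). Over all genes the block moved the calls with GSK2830371 in TPC1 from 214 to 480, the TPC1 interaction from 965 to 1573 and the line difference with GSK2830371 from 365 to 613. Per kilobase of the longest transcript instead of merged exons, the JUN share of its family was 56.0% (TPC1 DMSO), 39.4% (TPC1 nutlin), 72.8%, 67.7%, 67.8% and 61.6% (K1 DMSO, nutlin, GSK2830371 and combination). Depth limits FOS in TPC1, at 9 to 86 counts.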
